A study of Homo sapiens with 48 samples.

Results

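BMI1, PCGF1, PCGF2, PCGF3, PCGF5, PCGF6, RING1 and RNF2 encode the PCGF and RING subunits of Polycomb repressive complex 1 (PRC1). They were taken by symbol from the 35535 genes of a count table, and all 8 were found there. The table covers 639V, HT1197, HT1376, KU1919, SW780, T24, TCCSUP and VMCUB, 8 established lines from bladder cancer. Cells received either DMSO, the solvent, or CPI-0209, a small-molecule inhibitor of the histone methyltransferase EZH2, at 250 nM over 4 days. Libraries were made from total RNA, 3 per line and treatment, which gave 48 libraries in 16 groups. The labels do not say whether the 3 libraries of a group came from separate cultures. The p-values within a line, of the interaction and of the DMSO level therefore reflect the spread between these libraries, which may be technical. Those of the shared response over the 8 lines reflect how the response varied between lines. HT1197, HT1376 and TCCSUP grew in MEM, SW780, VMCUB and 639V in DMEM, and KU1919 and T24 each in another medium, so line and medium cannot be told apart.

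PRC1 attaches ubiquitin to histone H2A. Its catalytic core pairs a RING protein, RING1 or RNF2, with a PCGF protein, and the PCGF protein decides which other subunits can join. BMI1 and its close relative PCGF2 form canonical PRC1 with CBX and PHC proteins, and the CBX chromodomain binds the methyl mark that EZH2, within Polycomb repressive complex 2 (PRC2), places on histone H3. PCGF1 works with KDM2B and BCOR, PCGF3 and PCGF5 with AUTS2 and the FBRS proteins, and PCGF6 with L3MBTL2, MGA, MAX and E2F6. These variant complexes carry RYBP or YAF2 and do not need the H3 mark to bind chromatin. BMI1 is also known as a self-renewal gene that represses the CDKN2A locus.

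Library totals ran from 26481418 to 50916911 counts, and each of the 8 genes had at least 201 counts in every library. Of 7 epithelial markers, 7 reached 1 CPM (counts scaled to the library size) in the DMSO libraries of 7 lines and 5 did in 639V, where CDH1 averaged 0.731 CPM and EPCAM 0.936 CPM. Of 10 urothelial markers, between 3 (639V) and 9 (SW780) reached 1 CPM, and UPK3A was at 0 in DMSO in KU1919, 639V and VMCUB. Of 7 epithelial and 9 urothelial markers tested over the lines, 0 passed. In SW780 with CPI-0209, 5 epithelial and 7 urothelial markers were called lower and 0 higher. In HT1376, 4 of each list were called higher, and 0 epithelial and 1 urothelial lower. EZH2 mRNA itself did not pass the test over the 8 lines (log2 fold change 0.03 ± 0.03 SE, adjusted p = 0.513), and an inhibitor of the enzyme need not change its mRNA. Of 6 fibroblast markers 1, COL1A1, passed the test over the lines (log2 fold change 1.10 ± 0.20) and rose in 7 of 8 lines, and PDGFRA rose in all 7 lines where it was tested. LUM was called higher in 4 lines and lower in 1, and COL1A2 higher in 3 and lower in 1. DCN and PDGFRB were each called higher in 3 lines and lower in 0. The summed level of the 6 ran from 4.83 CPM in T24 to 8901 CPM in TCCSUP in DMSO libraries and from 12.8 to 11649 CPM in CPI-0209 libraries of the same lines. In HT1376 this sum was lower in CPI-0209 libraries (204 to 229 CPM) than in DMSO libraries (241 to 250 CPM). In every other line all CPI-0209 libraries lay above the DMSO libraries. Of 5 mesenchymal markers 1, FN1, passed over the lines (0.64 ± 0.15) and rose in 7 of 8, and their sum ran from 69.3 to 15862 CPM in DMSO and from 97.1 to 18213 CPM in CPI-0209. No marker of these 2 lists was at 0 in DMSO, and their part in the values below was not tested. By a chi-square of counts per degree of freedom between pairs of replicates, which ran from 2.13 to 126 over 48 pairs, the 5 libraries farthest from both others of their group, by the smaller of their values, were KU1919 CPI-0209 replicate 1 (66.4 and 98.3), T24 DMSO replicate 2 (54.8 and 50.6), T24 CPI-0209 replicate 3 (95.2 and 87.7), VMCUB DMSO replicate 2 (44.6 and 126) and TCCSUP DMSO replicate 1 (25.2 and 29.4), which also had a mitochondrial share of 1.75% against 3.48% and 3.68%. Calls that changed without them are given with the gene.

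BMI1 was the member that rose in every line. Its RefSeq promoter upstream of the 5′-most start (GRCh38.p14, chr10:22320849-22321098, plus strand) is shown first, and that of PCGF5, the member whose level and response differed most between lines, follows for a listed start (chr10:91162762-91163011, plus strand). Each window is the 250 bases before the start, and capitals mark CG dinucleotides.
BMI1: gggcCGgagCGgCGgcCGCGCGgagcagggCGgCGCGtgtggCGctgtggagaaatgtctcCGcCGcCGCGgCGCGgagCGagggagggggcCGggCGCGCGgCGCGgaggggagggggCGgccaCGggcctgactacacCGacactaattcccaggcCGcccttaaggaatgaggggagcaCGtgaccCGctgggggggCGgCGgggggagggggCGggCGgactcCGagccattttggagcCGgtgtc
PCGF5: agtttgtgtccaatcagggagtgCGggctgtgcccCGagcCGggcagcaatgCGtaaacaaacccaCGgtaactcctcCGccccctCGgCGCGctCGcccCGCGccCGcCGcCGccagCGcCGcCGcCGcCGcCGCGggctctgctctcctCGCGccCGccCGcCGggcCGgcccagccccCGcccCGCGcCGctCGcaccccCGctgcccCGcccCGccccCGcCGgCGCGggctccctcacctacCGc
The BMI1 window holds 35 CG and the PCGF5 window 41, and neither overlaps an annotated exon. The BMI1 window lies inside the span of COMMD3-BMI1, a readthrough gene on the same strand (chr10:22316388-22329542) that begins at the neighbouring gene COMMD3. In windows of 300 bases, which add the 50 bases after the start, the median over the 8 genes and their 12 listed starts was 37 CG, and the median over 35116 promoters was 14 CG. BMI1 and PCGF5 have several listed starts and so weigh more in that median. The members were not alike: PCGF2 had 2 CG and PCGF1 14. BMI1 had 36 and 65, and the PCGF5 starts ran from 5 to 55. The E-box CACGTG, searched on both strands, was found in BMI1, 70 to 65 bases before the start, and in no other member, against 7.26% of all promoters. The GC box GGGCGG was found in 6 members (BMI1, PCGF1, PCGF3, PCGF5, RING1 and RNF2), against 45.0% of all promoters, and its match in the BMI1 window does not overlap the E-box. The E2F motifs TTTCGCGC and TTTGGCGC were found in no member and in 1.15% of all promoters. A member counted if the window of any of its listed starts matched, while the percentages count each promoter singly, so the 2 are not like for like. These matches describe letters in the windows and were not linked to binding, which was not measured.

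In CPI-0209 libraries, BMI1 was higher than in DMSO in all 8 lines, RNF2 in 4 and PCGF5 in 4, by edgeR's quasi-likelihood test at an adjusted p under 0.05. PCGF5 was lower in 1 line, PCGF2 and PCGF6 each in 2, and PCGF1, PCGF3 and RING1 each higher in 1. In HT1197, BMI1 and RNF2 rose, where 11.8% of all genes tested were called higher and 7.80% lower. In HT1376, BMI1 and PCGF5 rose and PCGF6 fell, where 23.7% of genes were called higher and 16% lower. BMI1 was the member that passed the test in KU1919, where 9.30% of genes were called higher and 2.40% lower. It was also the member that passed in T24, where 9.37% of genes were called higher and 0.930% lower. SW780 had the most members called: BMI1, PCGF1, PCGF5, RING1 and RNF2 rose and PCGF2 fell, beside 30.8% of genes called higher and 30.3% lower. In 639V, BMI1, PCGF5 and RNF2 rose and PCGF2 and PCGF6 fell, beside 22.1% of genes called higher and 17.1% lower. In TCCSUP, BMI1, PCGF3 and RNF2 rose and PCGF5 fell, beside 25.7% of genes called higher and 23.0% lower. BMI1 and PCGF5 rose in VMCUB, where 16.4% of genes were called higher and 11.0% lower. The median absolute log2 fold change of the 8 members beside that of all genes tested was 0.10 against 0.10 in HT1197, 0.15 against 0.20 in HT1376, 0.14 against 0.19 in KU1919, 0.23 against 0.29 in SW780, 0.15 against 0.15 in T24, 0.18 against 0.16 in 639V, 0.19 against 0.22 in TCCSUP and 0.24 against 0.26 in VMCUB. Whether the DMSO and CPI-0209 libraries of a line overlap is given below as a description only. The share of all genes without overlap is not given here, so a lack of overlap cannot be read as a trait of the members.

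**Figure D1:**
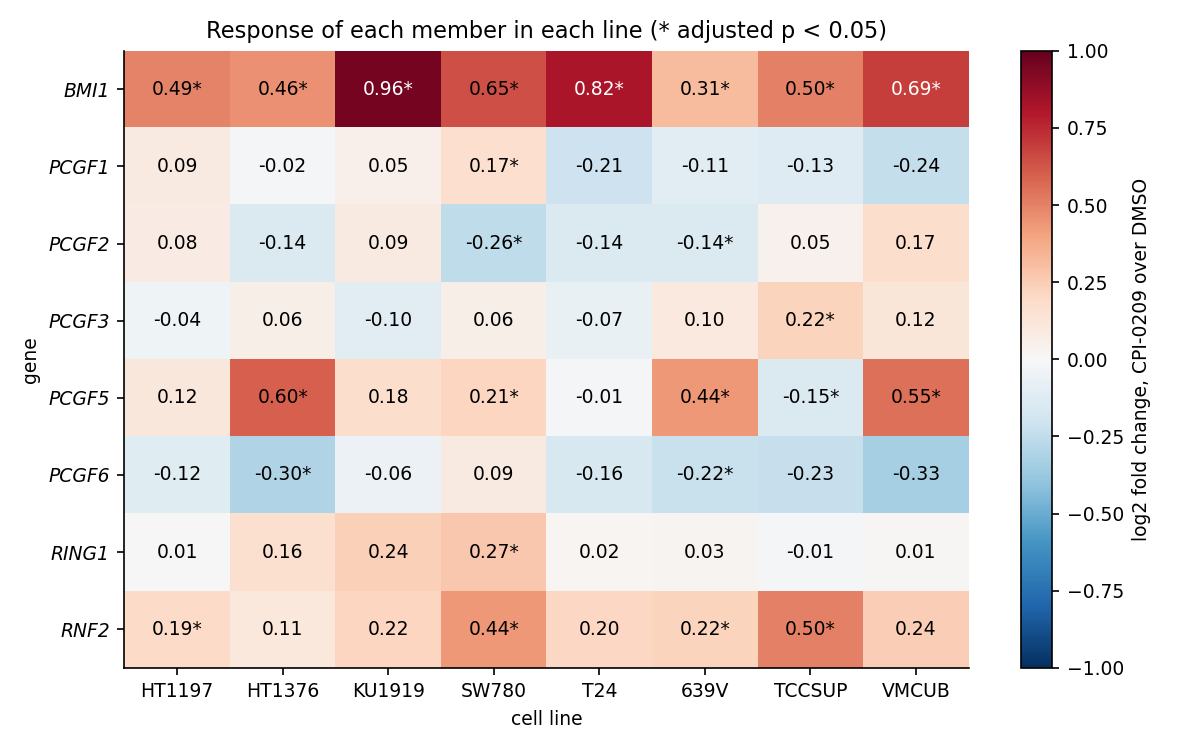
Log2 fold change of CPI-0209 against DMSO (colour and number) for the 8 genes (rows) in the 8 lines (columns), with an asterisk where the adjusted p was under 0.05. BMI1 has an asterisk in all 8 columns, from 0.31 in 639V to 0.96 in KU1919, and the other 7 genes in at most 5.

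Of the 13011 genes tested in all 8 lines, 88 (0.676%) were called higher in every line, and BMI1 was among them. In the shared response, tested on counts summed over replicates with line and treatment as terms, BMI1 rose by a log2 fold change of 0.59 ± 0.07 SE (adjusted p = 0.0114), where 7.31% of 18110 genes were called higher and 4.41% lower. Its mean over the 8 lines was 69.0 ± 26.8 CPM in DMSO and 102 ± 27.3 CPM in CPI-0209 (SD over lines, n = 8). BMI1 kept its call in every line and in the shared response under all the other settings tried, leaving out any 1 library included.

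The rise of BMI1 was largest in KU1919, where the DMSO libraries had 51.5, 49.6 and 47.9 CPM and the CPI-0209 libraries 96.2, 102 and 91.6 CPM (log2 fold change 0.96 ± 0.08 SE, adjusted p = 0.00056). In T24 the DMSO libraries had 58.0, 74.2 and 55.1 CPM and the CPI-0209 libraries 102, 104 and 121 CPM (0.82 ± 0.12, adjusted p = 0.00573). The T24 libraries spread most, and even there the highest DMSO library lay below the lowest CPI-0209 library. Without the libraries that stood off, the T24 value was 0.95 (DMSO replicate 2 left out, adjusted p = 0.00422) or 0.76 (CPI-0209 replicate 3, adjusted p = 0.00694). In VMCUB the values were 56.6, 70.5 and 53.8 CPM in DMSO and 97.3, 93.0 and 91.4 CPM in CPI-0209 (0.69 ± 0.10, adjusted p = 0.00318, and 0.80, adjusted p = 8.23e-06, without DMSO replicate 2). In SW780 they were 47.97, 53.1 and 54.1 CPM against 81.3, 86.7 and 79.4 CPM (0.65 ± 0.05, adjusted p = 2.06e-09). These 4 lines began with BMI1 between 49.6 and 62.4 CPM on average and ended between 82.5 and 109 CPM.

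TCCSUP had 77.5, 67.5 and 66.8 CPM of BMI1 in DMSO and 97.7, 94.0 and 101 CPM in CPI-0209 (log2 fold change 0.50 ± 0.06 SE, adjusted p = 2.95e-05). HT1197 had 58.2, 60.9 and 57.9 CPM in DMSO and 82.7, 80.7 and 82.8 CPM in CPI-0209 (0.49 ± 0.04, adjusted p = 9.36e-08). HT1376 had 64.9, 63.3 and 66.8 CPM in DMSO and 85.3, 90.8 and 86.5 CPM in CPI-0209 (0.46 ± 0.05, adjusted p = 6.81e-05). In these 3 lines the groups did not overlap, and TCCSUP DMSO replicate 1 lay above the other DMSO libraries of its line (0.57, adjusted p = 2.7e-07, without it). 639V stood apart in level: its DMSO libraries had 130, 132 and 137 CPM, above every CPI-0209 library of the other 7 lines, and its CPI-0209 libraries 168, 164 and 165 CPM. Its log2 fold change, 0.31 ± 0.04, was the smallest (adjusted p = 3.79e-05). The size of the BMI1 response differed between lines by the F test of the 7 interaction terms over 48 libraries (adjusted p = 0.000113), a test that 58.7% of 19790 genes passed.

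**Figure D2:**
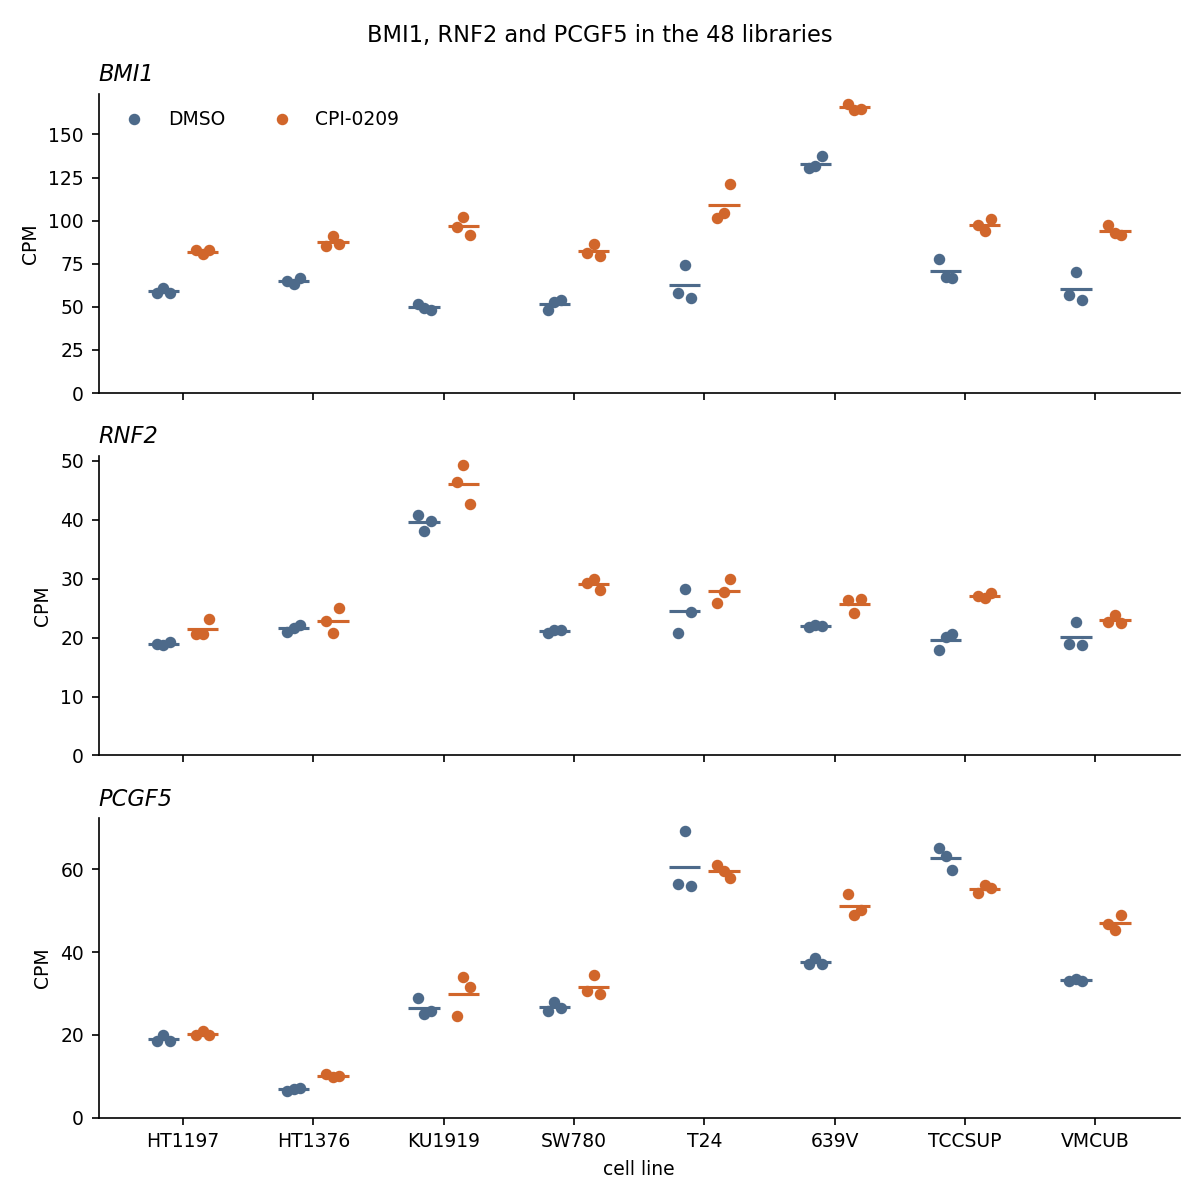
CPM (TMM-scaled) of BMI1, RNF2 and PCGF5 in each of the 48 libraries, by line, with DMSO and CPI-0209 as separate colours and bars at group means. All CPI-0209 libraries of BMI1 lie above the DMSO libraries of their line in 8 of 8 lines, of RNF2 in 5 and of PCGF5 in 5, with PCGF5 in TCCSUP the reverse. The share of all genes with groups apart in this way is not given here.

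BMI1 reads can be shared with COMMD3-BMI1, whose transcripts join COMMD3 to BMI1: 1000 exonic bases, 23.3% of the BMI1 exons, belong to both in GENCODE 29. COMMD3-BMI1 had far lower counts, with a mean over lines of 7.48 CPM in DMSO and 8.90 CPM in CPI-0209. It rose in SW780 (log2 fold change 0.39 ± 0.13 SE, adjusted p = 0.0183), 639V (0.29 ± 0.08, adjusted p = 0.0103) and TCCSUP (0.69 ± 0.13, adjusted p = 0.00082) and did not pass in the other 5 lines or over the lines (0.24 ± 0.09, adjusted p = 0.101). COMMD3, the upstream neighbour that shares no exon with BMI1, rose in HT1197 (0.23), SW780 (0.16), 639V (0.23) and TCCSUP (0.51), and over the lines had 0.20 ± 0.10 (adjusted p = 0.193). With the counts of COMMD3-BMI1 added to those of BMI1, a setting chosen after seeing the data, BMI1 was called higher in all 8 lines (log2 fold change 0.31 to 0.89) and over the lines (0.56, adjusted p = 0.0113).

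**Figure D3:**
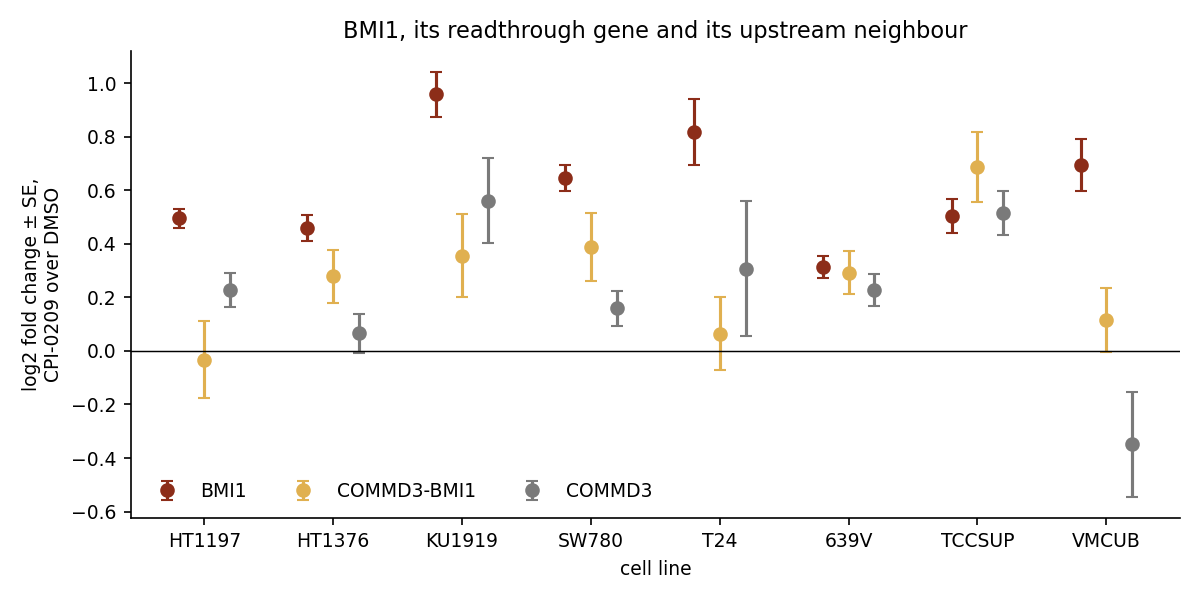
Log2 fold change of CPI-0209 against DMSO with its SE in each line for BMI1, the readthrough gene COMMD3-BMI1 and COMMD3. BMI1 lies above 0 in all 8 lines, while COMMD3-BMI1 is at -0.03 in HT1197 and COMMD3 at -0.35 in VMCUB, neither of which passed the test.

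RNF2 encodes RING1B, an E3 ubiquitin ligase for histone H2A. It rose over the 8 lines by a log2 fold change of 0.25 ± 0.06 SE (adjusted p = 0.0286), and its mean over lines was 23.4 ± 6.74 CPM in DMSO and 27.9 ± 7.83 CPM in CPI-0209 (SD, n = 8). Each of the 8 line estimates was above 0, and 4 passed the test. In TCCSUP the DMSO libraries had 17.9, 20.1 and 20.6 CPM and the CPI-0209 libraries 27.0, 26.6 and 27.5 CPM (0.50 ± 0.06, adjusted p = 2.35e-05). In SW780 they had 20.7, 21.2 and 21.3 CPM against 29.2, 29.9 and 28.02 CPM (0.44 ± 0.05, adjusted p = 6.27e-07). The groups of both lines lay well apart. In 639V the values were 21.8, 22.1 and 22.0 CPM against 26.4, 24.1 and 26.5 CPM (0.22 ± 0.06, adjusted p = 0.0062), and in HT1197 18.9, 18.7 and 19.2 CPM against 20.5, 20.7 and 23.1 CPM (0.19 ± 0.06, adjusted p = 0.0238). KU1919 began highest, with 40.8, 38.1 and 39.8 CPM in DMSO and 46.3, 49.2 and 42.7 CPM in CPI-0209, and its groups did not overlap either, though it did not pass the test (0.22 ± 0.09, adjusted p = 0.169). VMCUB (0.24, adjusted p = 0.0633), T24 (0.20, adjusted p = 0.436) and HT1376 (0.11, adjusted p = 0.275) had overlapping groups.

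The RNF2 responses differed between lines (interaction adjusted p = 0.025), a call that was lost without SW780 (adjusted p = 0.122) or without TCCSUP (adjusted p = 0.134). The shared call of RNF2 was lost without T24 (adjusted p = 0.063), 639V (0.0554) or TCCSUP (0.0528). RNF2 was also called in KU1919 without CPI-0209 replicate 1 (adjusted p = 0.0123) and in VMCUB without DMSO replicate 2 (0.00348), and lost its call in HT1197 without DMSO replicate 2 (0.0967), DMSO replicate 3 (0.0506) or CPI-0209 replicate 3 (0.12). The HT1197 call was lost as well with DESeq2 (adjusted p = 0.127) and in the fit of all 48 libraries (0.269). That fit called RNF2 in KU1919 (0.0363), and scaling by library totals called it in VMCUB (0.0222).

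RING1, the alternative ligase to RNF2, moved less. It rose in SW780, from 44.1, 35.9 and 44.8 CPM in DMSO to 52.2, 48.9 and 51.5 CPM in CPI-0209 (log2 fold change 0.27 ± 0.08 SE, adjusted p = 0.012). In KU1919 the values were 54.8, 52.8 and 49.9 CPM against 73.9, 56.9 and 56.2 CPM, groups that did not overlap and did not pass the test (0.24 ± 0.10, adjusted p = 0.203). The highest of these is CPI-0209 replicate 1, and without it RING1 had 0.13 (adjusted p = 0.0637), while the fit of all 48 libraries called it (0.0266). In the other 6 lines the groups overlapped, with log2 fold changes from -0.01 in TCCSUP to 0.16 in HT1376, and without HT1376 DMSO replicate 1 RING1 was called there (adjusted p = 0.0199). Over the 8 lines RING1 had 0.07 ± 0.05 (adjusted p = 0.338). The difference of the RING1 response between lines had an adjusted p of 0.0524, of 0.0414 without HT1197, of 0.0348 without HT1376 and of 0.00272 under scaling by library totals.

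PCGF5, which joins AUTS2-containing variant PRC1, had the most divergent responses. It rose in HT1376 from 6.37, 7.04 and 7.15 CPM to 10.5, 9.91 and 10.1 CPM (log2 fold change 0.60 ± 0.08 SE, adjusted p = 0.000308). VMCUB went from 33.1, 33.6 and 33.1 CPM to 46.8, 45.4 and 48.9 CPM (0.55 ± 0.06, adjusted p = 0.00113), and 639V from 37.1, 38.6 and 37.1 CPM to 54.0, 48.9 and 50.1 CPM (0.44 ± 0.05, adjusted p = 1.12e-05). In these 3 lines the groups were far apart beside the spread of replicates. SW780 rose less, from 25.8, 28.03 and 26.6 CPM to 30.7, 34.5 and 29.8 CPM (0.21 ± 0.06, adjusted p = 0.00432). TCCSUP went the other way, from 65.04, 63.1 and 59.9 CPM in DMSO to 54.2, 56.2 and 55.4 CPM in CPI-0209 (-0.15 ± 0.05, adjusted p = 0.0389). This was the reverse of the other called lines, and the CPI-0209 libraries all lay below the DMSO libraries. The TCCSUP call was lost when DMSO replicate 1 (adjusted p = 0.0608), DMSO replicate 2 (0.0646), CPI-0209 replicate 1 (0.161) or CPI-0209 replicate 3 (0.0875) was left out, under scaling by library totals (0.106) and in the fit of all 48 libraries (0.0635).

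T24, with a PCGF5 level near that of TCCSUP, had 56.5, 69.2 and 56.1 CPM in DMSO and 61.0, 59.6 and 58.0 CPM in CPI-0209, an overlap (log2 fold change -0.01 ± 0.10 SE, adjusted p = 0.978). HT1197 had 18.5, 19.9 and 18.5 CPM against 20.1, 20.9 and 19.96 CPM (0.12 ± 0.05, adjusted p = 0.149). KU1919 had 28.96, 25.0 and 25.7 CPM against 24.6, 33.9 and 31.5 CPM (0.18 ± 0.15, adjusted p = 0.497), and the low CPI-0209 value is replicate 1. Without it PCGF5 was called higher in KU1919 (adjusted p = 0.00309). The PCGF5 response differed between lines (interaction adjusted p = 1.15e-06, the smallest of the 8 members), and over the lines it had 0.22 ± 0.09 (adjusted p = 0.115).

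PCGF2, the other canonical PCGF, did not rise beside BMI1 in any line by the test. It fell in SW780, from 65.3, 63.9 and 70.3 CPM to 57.1, 53.6 and 59.4 CPM (log2 fold change -0.26 ± 0.05 SE, adjusted p = 0.000203), and in 639V, from 87.6, 88.6 and 86.2 CPM to 77.7, 84.5 and 76.1 CPM (-0.14 ± 0.05, adjusted p = 0.0222). The groups of both lines did not overlap. Nor did those of HT1197 and VMCUB, where CPI-0209 libraries lay higher, and of HT1376, where they lay lower, and PCGF2 was not called in these lines. Neither call held when libraries were scaled by their totals alone (SW780 -0.06, adjusted p = 0.322, with the median of all genes at 0.22 in place of 0.02 under that scaling, and 639V adjusted p = 0.12). In 639V the call was also lost without DMSO replicate 2 (adjusted p = 0.0663), CPI-0209 replicate 1 (0.0558) or CPI-0209 replicate 3 (0.0869), and in the fit of all 48 libraries (0.222). The other 6 lines had PCGF2 values between -0.14 in T24 and 0.17 in VMCUB, and HT1376 (-0.14) was called without DMSO replicate 3 (adjusted p = 0.0267). The PCGF2 response differed between lines (interaction adjusted p = 0.0207), and did not pass without SW780 (0.0563). On the opposite strand, CISD3, which encodes an iron-sulfur protein, overlaps 1148 exonic bases of PCGF2 (32.7% of its exons). CISD3 fell in SW780 (-0.61 ± 0.05, adjusted p = 1.23e-08), TCCSUP (-0.65 ± 0.08, adjusted p = 2.55e-05) and VMCUB (-0.64 ± 0.10, adjusted p = 0.0047). The sources used here do not give the strand setting of the counting, so PCGF2 values are uncertain where CISD3 moved.

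PCGF6, of the MGA and L3MBTL2 complex, had negative estimates in 7 of 8 lines, and in 6 under scaling by library totals, where KU1919 moved to 0.00. Without DMSO replicate 2 the T24 estimate moved from -0.16 to 0.01. It fell in HT1376, from 9.23, 10.4 and 8.30 CPM to 7.12, 7.74 and 7.39 CPM (log2 fold change -0.30 ± 0.10 SE, adjusted p = 0.0372), and in 639V, from 19.8, 18.9 and 18.8 CPM to 16.9, 17.3 and 15.3 CPM (-0.22 ± 0.06, adjusted p = 0.00851). VMCUB had the largest estimate, with 19.6, 25.8 and 17.2 CPM against 15.4, 17.1 and 15.5 CPM, and did not pass (-0.33 ± 0.14, adjusted p = 0.115). In all 3 lines, and in HT1197, the CPI-0209 libraries lay below the DMSO libraries. SW780 had the 1 positive estimate (0.09 ± 0.09, adjusted p = 0.436), which passed under scaling by library totals (0.29, adjusted p = 0.0109). Over the 8 lines PCGF6 had -0.18 ± 0.07 (adjusted p = 0.0953), and it was called in the shared response by DESeq2 (0.0113) and in a fit of all 48 libraries with line and treatment as terms (0.00351). These 2 settings called 4771 of 18921 and 9947 of 19790 genes, against 2123 of 18110 in the main fit on sums. The fit of 48 libraries takes the libraries of a line as replicates of the shared response. No difference of the PCGF6 response between lines was called (interaction adjusted p = 0.377). The HT1376 call was lost without DMSO replicate 2 (0.108), CPI-0209 replicate 1 (0.0874), CPI-0209 replicate 2 (0.0563) or CPI-0209 replicate 3 (0.103), and without VMCUB DMSO replicate 3 PCGF6 was called in VMCUB (0.0141), though not without DMSO replicate 2 (-0.17, adjusted p = 0.137). The HT1376 call was also lost with DESeq2 (adjusted p = 0.0586) and with replicate number as a block (0.0612). In a fit of all 48 libraries that tested each line, the calls in HT1376 (0.0938) and 639V (0.306) were lost. That fit called PCGF6 in VMCUB (0.0249), and the block called it in TCCSUP (0.0359).

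PCGF1, the partner of KDM2B and BCOR, rose in SW780, from 12.5, 13.5 and 12.4 CPM to 14.9, 14.2 and 14.9 CPM (log2 fold change 0.17 ± 0.06 SE, adjusted p = 0.0263). That call was lost without DMSO replicate 1 (0.07), DMSO replicate 3 (0.117), CPI-0209 replicate 1 (0.0852) or CPI-0209 replicate 3 (0.078), and with DESeq2 (0.15). It was also lost without the filter on low counts (0.0621) and in the fit of all 48 libraries (0.0911). VMCUB had the lowest PCGF1 estimate, with 19.7, 23.7 and 19.1 CPM against 17.4, 16.2 and 17.2 CPM (-0.24 ± 0.09, adjusted p = 0.083), and was called lower without DMSO replicate 3 (0.0228) but not without DMSO replicate 2 (-0.16, adjusted p = 0.0908). The fit of all 48 libraries called it lower in VMCUB (0.0104). The 6 remaining lines ran from -0.21 in T24 to 0.09 in HT1197. Over all 8 lines the PCGF1 response was called as different between lines (interaction adjusted p = 0.0208). That call was lost without SW780 (0.148) and with line by replicate number as a block (0.0951). PCGF3, a close relative of PCGF5, rose in TCCSUP, from 49.8, 50.6 and 48.9 CPM to 56.0, 59.0 and 55.4 CPM (0.22 ± 0.05, adjusted p = 0.00329), groups that did not overlap. TCCSUP is the line in which PCGF5 fell. In the other 7 lines PCGF3 ran from -0.10 in KU1919 to 0.12 in VMCUB, and its response differed between lines (interaction adjusted p = 0.00304). The PCGF3 groups also did not overlap in KU1919 and T24, where CPI-0209 lay lower, and in 639V, where it lay higher, without a call. Scaling by library totals added calls for PCGF3 in SW780 (adjusted p = 3.55e-05) and 639V (0.0103), both higher. PCGF1 (-0.07 ± 0.07), PCGF2 (-0.06 ± 0.05) and PCGF3 (0.02 ± 0.04) did not pass over the 8 lines, with adjusted p from 0.477 to 0.741.

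In DMSO, the level of each of the 8 genes differed between the lines by an F test over 24 libraries, as did 97.5% of 18643 genes. Of the 28 pairs of lines, tested with adjustment over genes and pairs, 26 differed for PCGF1 and PCGF5, 25 for RING1, 22 for PCGF3, 21 for PCGF2 and PCGF6, 19 for BMI1 and 14 for RNF2, beside 72.2% of all tests of genes and pairs. PCGF5 had the widest span, 9.15-fold from 6.85 ± 0.422 CPM in HT1376 to 62.7 ± 2.59 CPM in TCCSUP (SD, n = 3). The spans of the other 7 genes ran from 1.83-fold for PCGF3 to 3.05-fold for PCGF6.

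The order of PCGF5 in DMSO, from low to high, was HT1376, HT1197 (19 CPM), KU1919 (26.6), SW780 (26.8), VMCUB (33.3), 639V (37.6), T24 (60.6) and TCCSUP. KU1919 and SW780 did not differ from each other (adjusted p = 1), nor did T24 and TCCSUP (0.443), and the other 5 neighbours in this order did. BMI1 ran from KU1919 (49.6 CPM) through SW780 (51.7), HT1197 (59.0), VMCUB (60.3), T24 (62.4), HT1376 (64.97) and TCCSUP (70.6) to 639V (133), and of its 7 neighbouring pairs the last differed (log2 difference 0.91 ± 0.09 SE, adjusted p = 4.47e-09). RNF2 was alike in shape: HT1197 (18.9 CPM), TCCSUP (19.5), VMCUB (20.2), SW780 (21.1), HT1376 (21.6), 639V (21.9) and T24 (24.4) did not differ between neighbours, and KU1919 (39.6) stood above T24 (0.69 ± 0.08, adjusted p = 6.29e-08). BMI1 and RNF2 therefore each had 1 high line, and not the same one.

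PCGF2 was lowest in HT1376 (31.6 CPM) and HT1197 (33.4), which did not differ (adjusted p = 0.917), rose through KU1919 (50.2) and SW780 (66.5) with a difference at each step, and was highest in 639V (87.5), above VMCUB (76.4, adjusted p = 0.0162). TCCSUP, T24 and VMCUB did not differ from their neighbours below. PCGF1 had HT1376 highest (22.8 CPM), above VMCUB (20.8, adjusted p = 0.0107), and TCCSUP lowest (8.66), below 639V (10.1, adjusted p = 0.0222). HT1376 was thus lowest of the 8 lines for PCGF2 and PCGF5 and highest for PCGF1. PCGF3 varied least, from 38.8 CPM in VMCUB to 71.2 CPM in SW780, both set off from their neighbours (adjusted p = 1.21e-07 and 0.00243). PCGF6 was lowest in SW780 (6.85 CPM, below HT1376 at 9.30, adjusted p = 0.00223), and the 5 highest, T24 to VMCUB (20.9), did not differ between neighbours. RING1 was highest in TCCSUP (85.3 CPM), above HT1197 (68.1, adjusted p = 0.000403), and lowest in HT1376 (32.5), below SW780 (41.6, adjusted p = 0.00334).

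**Figure D4:**
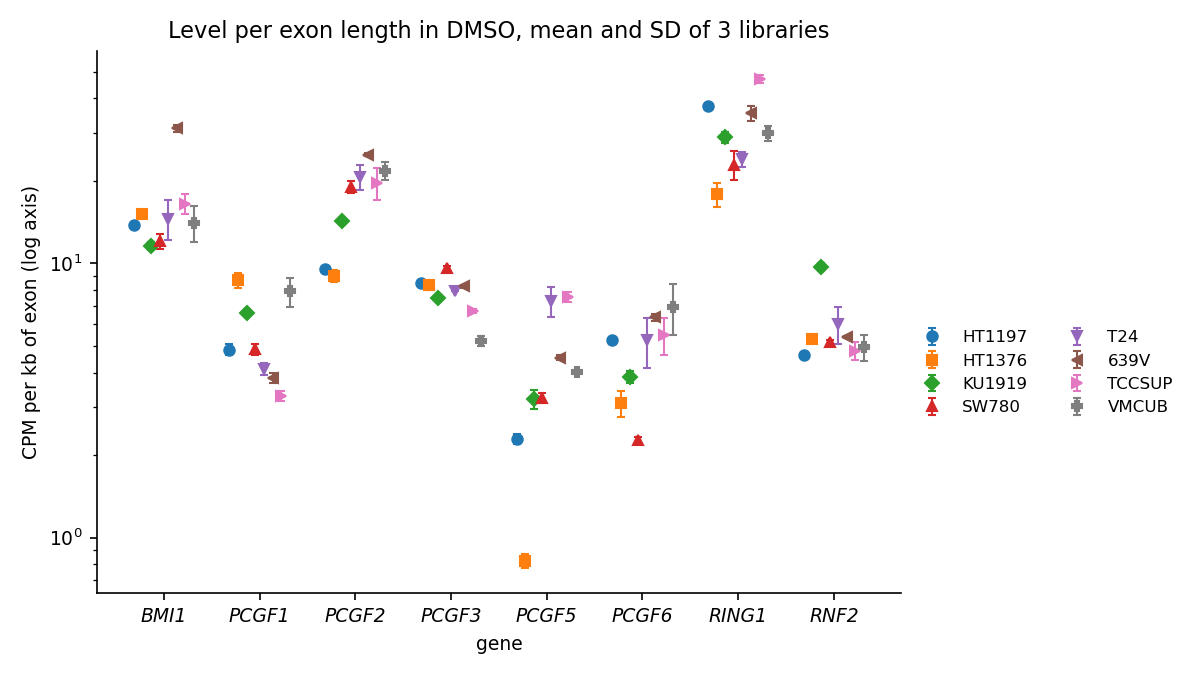
DMSO level per exon length (CPM per kb, log axis) of each gene in each line, as the mean and SD of 3 libraries. PCGF5 has the widest span of lines, from 0.825 to 7.55 CPM per kb, and RING1 the highest levels, from 17.9 to 46.9 CPM per kb.

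Levels of different genes were compared per length, as CPM per kb of annotated exon. In DMSO, PCGF2 (17.3 ± 5.81 CPM per kb) and BMI1 (16.1 ± 6.25 CPM per kb) had the highest PCGF means, above PCGF3 (7.75 ± 1.31), PCGF1 (5.52 ± 1.98), PCGF6 (4.82 ± 1.61) and PCGF5 (4.11 ± 2.33; SD over 8 lines). As shares of the summed level of the 6 PCGF genes, PCGF2 held 30.6% and BMI1 28.5% on average. The other shares were 14.5% for PCGF3, 10.5% for PCGF1, 8.63% for PCGF6 and 7.19% for PCGF5. RING1 was above RNF2 in all 8 lines, with 83.2% of their summed level on average in DMSO (74.8% to 90.7%).

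With CPI-0209 the BMI1 share rose in all 8 lines, by 9.37 ± 2.89 percentage points on average (SD, n = 8), from 28.5% to 37.9%, and in all 8 lines the CPI-0209 libraries lay above the DMSO libraries. The smallest change was 5.98 points and the largest 13.8. The shares of PCGF2 and PCGF6 were lower in CPI-0209 in all 8 lines, with mean changes of -4.39 and -1.96 points, without overlap in 5 and 6 lines. A share can fall through a rise of another member or a fall of its own gene. The log2 fold change of PCGF2 itself was above 0 in 4 of 8 lines and that of PCGF6 in 1, though none of these passed the test. In those lines the share fell without a fall in the estimate of its own gene, and in the others the 2 were not separated. The ratio of BMI1 to PCGF2 per length in DMSO was lowest in SW780 (0.638 ± 0.0396, SD, n = 3) and highest in HT1376 (1.69 ± 0.130). In CPI-0209 it was 1.20 ± 0.118 in SW780 and 2.56 ± 0.120 in HT1376. The mean ratio was above 1 in 3 of 8 lines in DMSO and in 7 in CPI-0209, where VMCUB had 0.929. Divided by the longest protein-coding transcript in place of all annotated exons, VMCUB had 1.01 and all 8 lines lay above 1. The share of RNF2 in the RING sum rose by 1.45 ± 1.33 points on average, in 6 of 8 lines, with groups that did not overlap in 3.

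**Figure D5:**
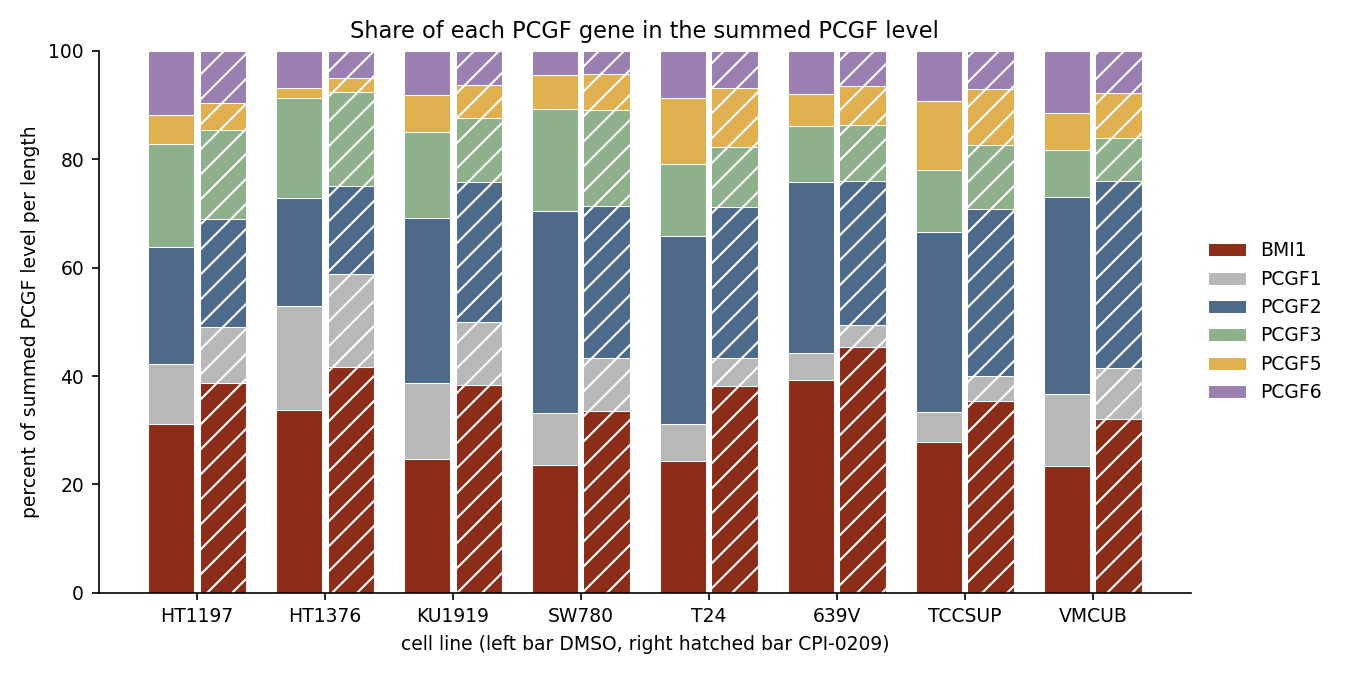
Share of each PCGF gene in the summed level per length of the 6 PCGF genes, by line, as stacked bars for DMSO (plain) and CPI-0209 (hatched), each the mean of 3 libraries. The BMI1 part is larger in CPI-0209 in all 8 lines, from a mean of 28.5% to 37.9%.

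The genes whose DMSO pattern over the 8 lines was most like that of a member are given as a description, out of 14136 genes with a mean of at least 1 CPM, each correlation over 8 line means from the same 24 libraries. For BMI1 they were FXR2 (Pearson r = 0.97), an RNA-binding relative of FMR1, and MAGED4B (0.96). PCGF5 was most like KIF20A (0.98), a mitotic kinesin, and LIF (0.97), a cytokine. RNF2 was most like ITGAX (0.98) and M1AP (0.98), PCGF1 like RYK (0.97) and DDX28 (0.97), and PCGF2 like MEA1 (0.97) and ELP5 (0.97). PCGF3 was most like INPP5K (0.97) and MAP4K2 (0.95), PCGF6 like USE1 (0.97) and ELOF1 (0.96), and RING1 like TRIO (0.96) and KCNJ3 (0.96). Among the members themselves, PCGF2 and PCGF5 were the pair most alike (0.81), PCGF6 and RING1 came next (0.65), and PCGF1 and PCGF5 were the pair least alike (-0.73). BMI1 was most like PCGF6 (0.50).

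Of 33 genes for PRC1 partners, all tested over the 8 lines, 4 rose and 2 fell, where 7.31% of all genes were called higher and 4.41% lower, with a median log2 fold change of -0.01 beside -0.01 for all genes tested. The 4 were CBX2 (1.07 ± 0.29 SE, adjusted p = 0.0458) and CBX8 (0.40 ± 0.09, adjusted p = 0.0286), chromodomain subunits that join BMI1 or PCGF2, BCOR (0.28 ± 0.07, adjusted p = 0.0353), the PCGF1 partner, and FBRSL1 (0.18 ± 0.05, adjusted p = 0.041) of the PCGF3 and PCGF5 complexes. CBX2 rose in all 8 lines, as BMI1 did, and its line mean went from 32.7 ± 24.4 CPM in DMSO to 56.4 ± 28.2 CPM in CPI-0209. CBX8 rose in 7 lines and BCOR in 6. MAX, the MYC dimerisation partner that is also in the PCGF6 complex, fell (-0.22 ± 0.05, adjusted p = 0.0338), as did TFDP1 (-0.22 ± 0.06, adjusted p = 0.0458), which was singled out after its values were seen. SCML2 (0.92, adjusted p = 0.0622), BCORL1 (0.79, adjusted p = 0.0733) and AUTS2 (2.13, adjusted p = 0.0753) did not pass over the lines and each rose in 5 lines. By line, the partners called higher ranged from 3 of 33 in KU1919 and T24 to 12 in SW780, beside 9.30%, 9.37% and 30.8% of all genes in these lines. Those called lower ranged from 0 in T24 to 15 in SW780, beside 0.930% and 30.3% of all genes.

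Of the 6 PRC2 core genes, SUZ12, a scaffold subunit, fell over the lines (-0.21 ± 0.05 SE, adjusted p = 0.0249) and in 5 single lines. The histone chaperones RBBP7 (-0.28, adjusted p = 0.0531) and RBBP4 (-0.20, adjusted p = 0.0982) and the mark reader EED (-0.11, adjusted p = 0.116) did not pass. Among 5 genes for removal of ubiquitin from H2A, the reaction opposed to that of RING1 and RNF2, the H2A deubiquitinase BAP1 had -0.07 (adjusted p = 0.244), USP16 -0.06 (0.382), MYSM1 -0.06 (0.434), ASXL2 -0.09 (0.443) and ASXL1 -0.02 (0.866), and the smallest unadjusted p was 0.11.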

How the data were processed

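Libraries from total RNA were sequenced as paired-end reads. The authors ran STAR 2.7.3a and RSEM 1.3.1 on the hg38 build, per the submitters' processing notes. The values they deposited are whole-number counts, with Ensembl genes as rows. The annotation, the strand setting and how RSEM's estimates became whole counts are not given in the sources used here. The growth label spells VMCUB as VMCUB1. A gene name table gave symbols for 35414 of 35535 genes. Coordinates and exon lengths came from GENCODE 29 (GRCh38, which is hg38), and promoter sequences from RefSeq (GRCh38.p14), where all 8 genes were matched. Protein sequences were not used here.

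Counts were analysed with R 4.3.3 and edgeR 4.0.16 (filterByExpr, TMM scaling, robust quasi-likelihood tests, Benjamini-Hochberg adjustment over all genes tested, threshold 0.05), fitted per line on 6 libraries with 4 residual degrees of freedom, on 16 sums for the shared response, on 48 libraries for the interaction and on 24 for the DMSO level. The SE of a log2 fold change was taken as its size over the square root of F. CPM used TMM-scaled library sizes over 48 libraries. Alternatives used DESeq2 1.42.0 and other scalings, filters, fits and left-out libraries or lines. The scripts were tested on simulated data with 200 changed genes per comparison. Of the smaller changes put in, 19% were called in T24 and 25% in KU1919, against 74% in HT1197 and 75% in SW780. A gene not called in T24 or KU1919 may therefore have changed. The smaller changes put in still exceeded most estimates of the members other than BMI1. False calls were 27 of 189 in HT1197, 17 of 163 in HT1376, 9 of 107 in KU1919 and 20 of 183 in SW780. They were 5 of 88 in T24, 15 of 172 in 639V, 15 of 158 in TCCSUP and 6 of 125 in VMCUB. In each line but VMCUB this was above the share of 0.05 that the threshold aims at. A call near the threshold in a single line may therefore be false. Tables and figures used Python 3.11.15 and matplotlib 3.10.9.

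The 8 members, the lists of partner genes and the tests were chosen with earlier results of these data known. From each partner list the text names up to 4 genes with the smallest p in the shared fit and any called in at least 5 lines in 1 direction. Of these, 1 gene is not reported here. For likeness it names the 2 genes and the member with the highest correlation with each member, and it names genes that overlap a member's exons.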

Additional observations from a re-analysis of the deposited data

Results flagged for a closer look

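In DMSO, 639V lay far above the other 7 lines for BMI1, at 133 CPM, with a gap to the next line of 0.749 of the whole range. KU1919 lay far above the other 7 for RNF2, at 39.6 CPM, with a gap of 0.734 of the range. Such a gap is flagged by chance in about 1 in 20 groups. Each of the 8 genes was looked at both for its DMSO level and for its log2 fold change over the lines.

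For 6 of the 8 genes the response to CPI-0209 differed between lines by the interaction F test: PCGF5 (adjusted p = 1.15e-06), BMI1 (0.000113), PCGF3 (0.00304), PCGF2 (0.0207), PCGF1 (0.0208) and RNF2 (0.025), beside 58.7% of all genes. BMI1 differed in size with the same sign in 8 lines, and PCGF5 was called higher in 4 lines and lower in TCCSUP, a call that several left-out libraries and other settings ended.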

How the results depend on the processing

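The 8 genes gave 88 tested values, recomputed under 1088 alternatives in all. The call was kept in 1026, lost in 40 and gained in 22, and none reversed while called. In 33 of them, from 15 values of at most 0.16 on the log2 scale, the sign changed while neither setting passed the test. BMI1 kept its call in every line, in the shared response and in the interaction throughout, also with COMMD3-BMI1 counts added, an alternative chosen after seeing the data. DESeq2 called 1 member in HT1197 in place of 2. A fit of all 48 libraries called 1 member in HT1197 (2 in its own fit), 3 in KU1919 (1), 3 in 639V (5) and 4 in VMCUB (2), and for the shared response 4 (2 on sums). Leaving out 1 library at a time gave 1 to 2 members in HT1197, 1 to 3 in KU1919 and 2 to 4 in VMCUB. Leaving out 1 line at a time gave 1 to 2 members in the shared response and 3 to 7, beside 6, in the interaction. The cause of these moves was not tested.

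Counts over all genes moved too. The shared response called 2123 genes, 4771 with DESeq2, 9947 in a fit of 48 libraries and 590 without T24. VMCUB called 4238, and 1811 to 7678 with a library left out. KU1919 called 1899, and 971 to 5422, and T24 1596, and as few as 936. The fit of 48 libraries called 1262 in HT1197 (3059 in its own fit) and 4344 in T24. Scaling by library totals moved the split of higher and lower calls from 5208 and 5114 to 8499 and 2839 in SW780, from 1844 and 1215 to 2122 and 685 in HT1197, from 3563 and 2759 to 4238 and 1655 in 639V, from 2540 and 1698 to 3255 and 826 in VMCUB, and from 1324 and 799 to 1703 and 110 over the lines. It also moved the median log2 fold change of all genes from 0.02 to 0.22 in SW780 and from 0.04 to 0.13 in VMCUB.

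Same-numbered libraries did not deviate together in any line (pair correlations from -0.36 to 0.17, none of 8 lines with all 3 above 0.1), and in no line did every library correlate best with its own number, so the replicate numbers were not taken as pairs. With the replicate number as a block, the members called were 2 in HT1376 in place of 3, 5 in TCCSUP in place of 4 and 5 in the interaction in place of 6, and as many as without it in the other 6 lines, and T24 called 1034 genes in place of 1596.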
